A study of Caenorhabditis elegans with 3 samples.

Results

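Transcript levels in L4 animals carrying the ahr-1(ia03) allele were set against those of wild type L4 animals across the genome of Caenorhabditis elegans. The members are 14570 of the 45343 features in the deposited table. They are the features that carried the status OK, reached an FPKM of at least 1 in either library and had a locus of at least 300 nt. FPKM counts sequenced fragments in proportion to the length of the transcript and the total of the library. The quantity used throughout is the log2 ratio of FPKM + 1, ahr-1(ia03) over wild type, so a positive value is higher in the mutant, and the added 1 makes differences of low genes look smaller.

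Per the labels, whole animals of strain ZG24, genotype ahr-1(ia03), and of strain N2, the wild type, were collected as synchronized L4 cultures from eggs released by hypochlorite. Another mutant strain, CZ2485 with the allele ahr-1(ju145), was raised the same way and is quoted only for comparison of single values. The labels name no transgene and no treatment for any of the 3 strains. The lesion of ia03, the hour of harvest within L4 and any other difference between the strains are not stated in the sources used here. Each strain gave 1 library, so no difference below has a replicate error or a test, and a difference of at least 2-fold on the scale of FPKM + 1 was used only as a mark of size.

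The gene ahr-1 encodes the worm aryl hydrocarbon receptor, a bHLH-PAS transcription factor that binds DNA together with its partner AHA-1. In vertebrates the receptor responds to dioxins and other ligands and drives detoxification genes, whereas in the worm it is best known for setting the fate of particular neurons and for behaviour in response to oxygen. At the L4 stage the hermaphrodite makes sperm, begins to turn to oocytes and yolk, and builds the last cuticle, which the hypodermis lays down after a temporary apical matrix.

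Most transcripts lay close to wild type. The median log2 ratio over all members was -0.02, with quartiles of -0.26 and 0.19, and 47.6% of members lay above wild type. At least 2-fold higher in ahr-1(ia03) were 308 members (2.11%), and at least 2-fold lower were 518 (3.56%). Those shares are the background for every count below. Of the higher members 98 were listed at 0 in wild type, and of the lower members 102 were listed at 0 in ahr-1(ia03). The authors' deposited table gave a q-value under 0.05 to 154 of the higher and 244 of the lower members, in a comparison of 1 library with 1 library.

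**Figure D1:**
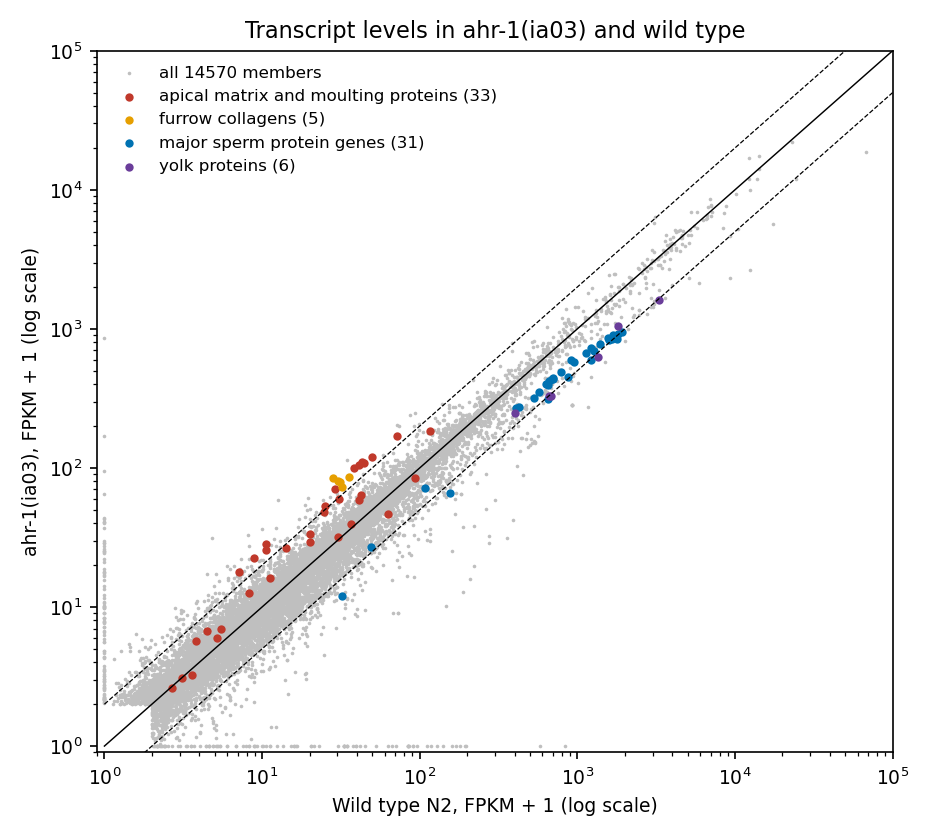
FPKM + 1 in wild type (horizontal) and in ahr-1(ia03) (vertical), both on log scales, 1 point per gene and 1 library per strain, with 4 gene lists in colour. The solid line marks equal levels and the dashed lines 2-fold. The furrow collagens and the 12 highest apical matrix genes lie above the upper dashed line, while major sperm protein and yolk genes lie near the lower one. Points on the axes are genes listed at 0 in 1 library.

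The size of a difference went with the length of the transcript. Among coding genes and pseudogenes with 300 to 500 nt of exon in the reference annotation, 12.5% were at least 2-fold lower and 4.22% higher. Under 300 nt the shares were 25.9% lower and 6.47% higher. With 2000 to 4000 nt of exon they were 0.182% lower and 0.875% higher, and above 4000 nt 0.768% lower and 1.54% higher. The interquartile range of the log2 ratio was 0.88 with 300 to 500 nt and 0.31 with 2000 to 4000 nt. Members with the biotype non-coding RNA numbered 203, of which 53 were at least 2-fold higher and 96 lower. The highest level of all members in wild type belonged to one of them, F56D12.10, at an FPKM of 67469 in wild type, 18630.2 in ahr-1(ia03) and 18468 in ahr-1(ju145). Its locus overlaps that of vig-1, which was at 1415 in wild type and 1399 in ahr-1(ia03). The part of fragment length or RNA recovery in these classes was not tested.

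A locus in the deposited table is the span of all overlapping features, not of a single gene, so it exceeds 300 nt for many short RNAs. The locus of 22.9% of members overlapped another feature above 0, and that of 1638 members overlapped a more abundant one, which is stated beside the gene. The limits of the rule were not neutral for span. The 221 features with a span of 300 to 399 nt had a median log2 ratio of -0.50, and those just outside, with 200 to 299 nt, had a median of -0.75. At the floor on level, the 669 members at FPKM 1 to 1.5 had a median of 0.03 and the 983 features at FPKM 0.5 to 1 had 0.01.

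The targeted gene was too low to be a member. The FPKM of ahr-1 (C41G7.5) was 0.664 in wild type and 0.699 in ahr-1(ia03), and its locus contains reads of the far more abundant cylc-2. These values do not bear on whether the allele is present. For the partner gene aha-1 the values were 9.51 and 11, with a locus shared with the more abundant mrpl-34. The related PAS gene hif-1, the regulator of the response to low oxygen, had 96.1 and 93.2. The Hsp90 gene daf-21, whose product holds aryl hydrocarbon receptors ready for ligand in vertebrates, had 1324 and 1220.5. None of the 5 measured genes of this list reached 2-fold.

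Genes of the apical matrix, and the furrow collagens of the cuticle, stood higher in ahr-1(ia03), whereas the long list of col collagens did not. Of the 33 genes on the list of apical matrix and moulting proteins, all of them measured, 12 were at least 2-fold higher, 0 were at least 2-fold lower and 28 lay above wild type. The list median was 0.66, against -0.02 over all members. The lipocalin-related lpr genes, whose products are secreted into the apical matrix, gave 5 of the 12. The FPKM of lpr-3 was 41.9 in wild type and 109 in ahr-1(ia03), that of lpr-6 was 37.3 and 99.2, and that of lpr-1, which keeps the excretory duct open, was 7.86 and 21.6. The other 2 of the 5, named after their values were seen like the rest of the 12 beyond the leading 4, were lpr-4 at 40.5 and 103.4 and lpr-5 at 28.2 and 69.8. The neighbouring genes lpr-3, lpr-4, lpr-5 and lpr-6 lie together on the X chromosome and were alike, from 28.2 to 41.9 in wild type and from 69.8 to 109 in ahr-1(ia03).

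The largest log2 ratio of the matrix list, 1.43, belonged to fbn-1, a fibrillin-related gene of the apical matrix, with 9.56 in wild type and 27.5 in ahr-1(ia03). Its locus overlaps upp-1, which is more abundant. The zona pellucida domain genes noah-1 and noah-2, needed for the matrix at moults, had 48.9 and 118 and 43.1 and 107 respectively. The mucin-like gene let-653, which shapes the duct and vulval lumen, had 9.62 and 24.9. Genes for extracellular leucine-rich repeat proteins behaved alike, with let-4 at 6.18 and 17 and sym-1 at 70.4 and 169, although both share a locus with the more abundant C44H4.10. The last of the 12 was mlt-11, a gene for a large protein with protease inhibitor domains that is required for moulting, at 24.1 and 52.4.

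The remaining matrix and moulting genes spread from just under 2-fold higher to somewhat below wild type. Close to 2-fold lay acn-1, a gene for an enzyme-like protein without peptidase activity, with a log2 ratio of 0.96, mlt-10 with 0.95 and the megalin-related lrp-1 with 0.90. The list's most abundant gene, mlt-8, was at 115 in wild type and 183 in the mutant. Below wild type lay 5 genes, of which the lowest was mup-4, a transmembrane protein that anchors hypodermis to cuticle, at 62.1 and 45.8. The spectraplakin gene vab-10, which acts at the same attachments, was at 91.8 and 83.5.

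**Figure D2:**
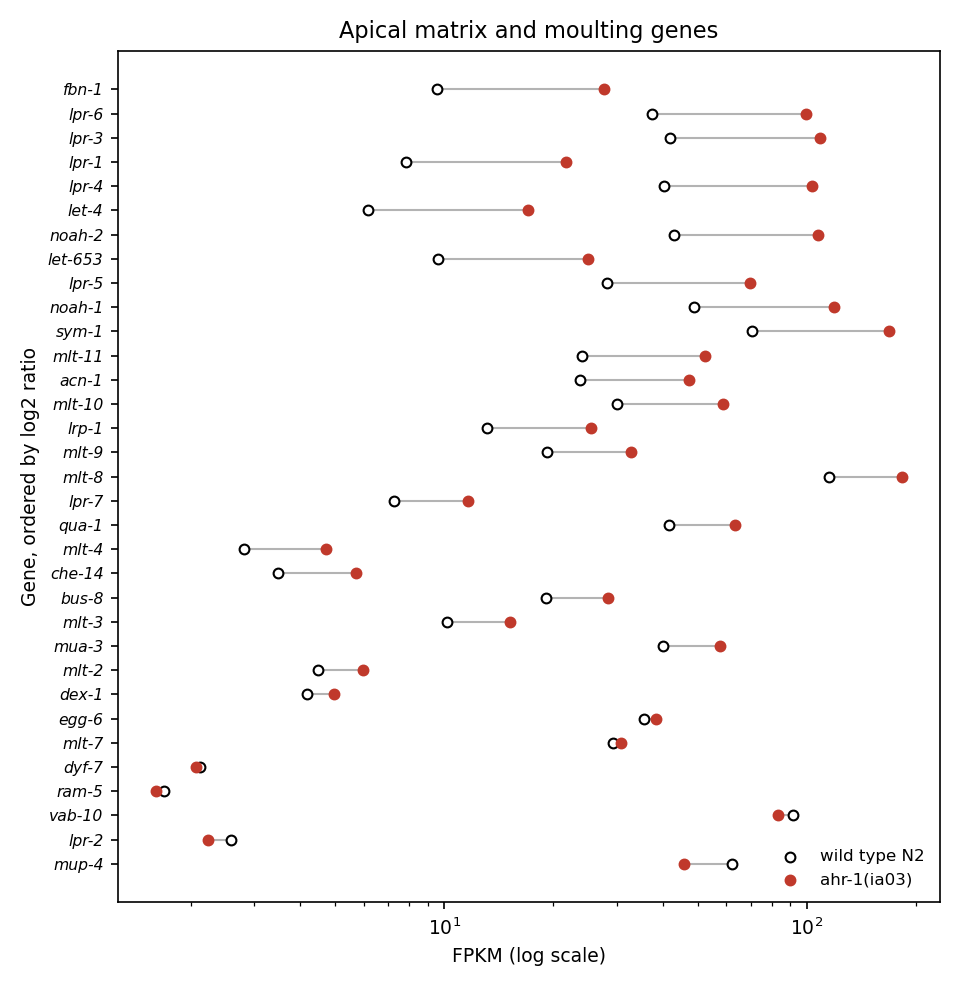
FPKM of the 33 apical matrix and moulting genes on a log scale, with wild type as open and ahr-1(ia03) as filled circles, 1 library per strain, ordered by log2 ratio. The filled circle lies to the right of the open one for 28 genes, and the top 12 are at least 2-fold apart.

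The collagens of the cuticle's circumferential furrows formed the highest list of those with at least 5 members. All 5 measured members, dpy-2, dpy-3, dpy-8, dpy-9 and dpy-10, were at least 2-fold higher, with a median of 1.34. These genes act together, and loss of any of them removes the furrows and shortens the animal. In wild type they lay between 27.1 and 34.6, and in ahr-1(ia03) between 71.9 and 84.5. The highest log2 ratio was that of dpy-3 (1.60) and the lowest that of dpy-2 (1.19). The same 5 genes lay between 39.6 and 54.9 in ahr-1(ju145). The sixth furrow collagen, dpy-7, is no member because its status was FAIL; the authors' deposited table lists it at 54.5 in wild type and 161 in ahr-1(ia03).

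Other collagens that set body shape were higher by less. All 12 measured genes lay above wild type, with a median of 0.51, and 0 reached 2-fold. The nearest was bli-1, a collagen of the struts of the adult cuticle, at 42.8 and 79.8, whose locus overlaps the more abundant col-80. Its partner in the struts, bli-2, had 142 and 239. The most abundant member, dpy-5, had 531 and 813, and sqt-3, a collagen the animal cannot live without, had 324 and 539. The smallest difference was that of ram-2, at 459 and 500.1.

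The serially named col genes divided by level. Of 115 measured, 4 were at least 2-fold higher and 9 lower, with a median of -0.04. Among the 33 with a mean FPKM of 100 to 500 over both libraries, 24 lay above wild type and the median was 0.27. Among the 41 with a mean of at least 500, 10 lay above wild type, the median was -0.56, and 7 were at least 2-fold lower. The level of col-124 was 5121 in wild type and 2326 in ahr-1(ia03), that of col-139 was 3578 and 1672, and that of col-119 was 2756 and 1285. Of the abundant body-shape collagens in the same range of level, dpy-5 and dpy-13 went the other way, with log2 ratios of 0.61 and 0.41. The col genes that were at least 2-fold higher had low or middling levels. They were col-176 at 33.5 and 113, col-54 at 12 and 26.2, col-46 at 3.36 and 8.35, and col-128 at 5.61 and 12.59, the last in a locus shared with the more abundant F12F6.17. Collagen genes resemble each other, and how reads that match several of them were assigned is not stated in the sources used here.

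**Figure D3:**
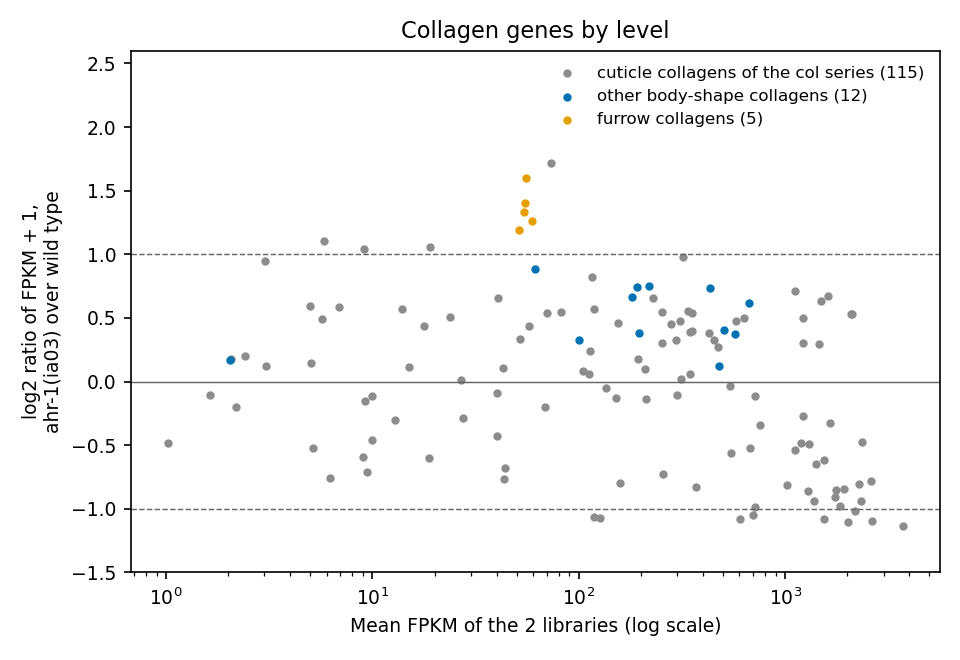
Log2 ratio of FPKM + 1, ahr-1(ia03) over wild type, against the mean FPKM of both libraries on a log scale, for 115 col genes in grey, 12 body-shape collagens in blue and 5 furrow collagens in orange. Dashed lines mark 2-fold. Furrow collagens lie above the upper line at middling levels, and most col genes at a mean of 500 or more lie below 0.

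Secreted signals and surface proteins of the hypodermis leaned the same way as the matrix genes by less. Of 36 hedgehog-related genes 26 lay above wild type, with a median of 0.30 and 2 at least 2-fold higher. These were wrt-10, at 86.1 in wild type and 239 in ahr-1(ia03), and grd-1, at 4.95 and 11.1. The most abundant, grd-5, was lower, at 455 and 388. Of 26 patched-related genes, for membrane proteins akin to the hedgehog receptor, 16 lay above wild type and 1 reached 2-fold, ptr-10, at 3.69 and 9.11. Of 20 cuticlins 16 lay above, with cutl-10 the single one past 2-fold, at 1.85 and 4.93. Thioredoxins, peroxidases and disulphide enzymes that fold and crosslink cuticle proteins had a median of 0.12, and the disulphide isomerase gene pdi-2, which also serves collagen prolyl hydroxylase, had 801 and 1188. The 27 astacin-like metalloproteases and the 62 abu and pqn genes had medians of 0.01 and -0.00, and 0 of either reached 2-fold.

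Cadherins, adhesion proteins of epithelia and neurons, included genes at both ends. This list was added after values were seen. Of 11 measured, 3 were at least 2-fold higher, with cdh-7 at 7.30 and 21, cdh-10 at 5.12 and 14.7 and cdh-12 at 4.12 and 10.2. The classical cadherin gene hmr-1 differed little, at 27.5 and 36.7. The most abundant member in wild type, cdh-5, was the single one at least 2-fold lower, at 35.7 in wild type, 15.3 in ahr-1(ia03) and 16.7 in ahr-1(ju145).

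The regulators of moulting and larval timing leaned higher, by less than 2-fold. Of 24 measured genes 18 lay above wild type, with a median of 0.22, and 0 reached 2-fold. The highest were pqn-47, needed to bring the moulting cycles to an end, at 19.1 and 37.4, and lin-42, the period-related gene whose transcript cycles with each moult, at 57.7 and 102. The gene mab-10, a cofactor of the switch to adult hypodermis, was at 12 and 20.8, whereas nhr-23, a nuclear receptor that drives moulting genes, was at 33.7 and 36.8 and the GATA factor elt-3 at 36.3 and 36.4. Of 18 markers of hypodermis and seam cells 13 lay above wild type and 0 were 2-fold apart. The median of the 18 was 0.31. The summed FPKM of all 20 listed markers, including dpy-7 of status FAIL, was 2269 in wild type and 3197 in ahr-1(ia03). The most abundant measured marker alone had 1241 in wild type. The markers include genes of the cuticle lists, such as dpy-7 and grl-21, so they are not separate from those lists. In whole animals a larger share of hypodermal cells and more RNA per cell cannot be told apart. Levels of many cuticle genes change within a larval stage, and the part of the hour of harvest in these differences was not tested.

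Transcripts of sperm and yolk stood lower. Of 31 major sperm protein genes, which encode the cytoskeleton of nematode sperm, all lay below wild type, with log2 ratios from -1.43 to -0.59, a median of -0.76 and 6 at least 2-fold lower. The level of msp-59, the most abundant in wild type, was 1924 in wild type and 953 in ahr-1(ia03). Copies of these genes are nearly identical and share reads, so they are not separate measurements. Of 62 genes for sperm-related short proteins and sperm phosphatases, 56 lay below wild type, with a median of -0.69 and 13 at least 2-fold lower. Most of these belong to the nspd, nspb and nspc families of short nematode-specific peptides. The lowest was nspd-9, at 168 and 45.9, and the most abundant was nspd-2, at 1996 and 823. The nspd genes named here have 216 and 213 nt of exon. Of coding genes and pseudogenes under 300 nt, a class that holds these nspd genes, 25.9% were at least 2-fold lower. With 300 to 500 nt the share was 12.5%. The list mixes lengths, since 6 of its 13 lower genes have at least 300 nt of exon, so its share cannot be set against a single class.

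Longer genes of sperm differentiation showed the same direction with smaller sizes. Of 32 spe, fer and related genes, 29 lay below wild type, with a median of -0.53, and 0 reached 2-fold. The gene spe-11, for a protein that sperm bring to the egg, had 89.7 and 50.2. The gene spe-27, needed for sperm activation in hermaphrodites and named after its value was seen, had 21.6 and 10.9. Those above wild type were rab-28 at a log2 ratio of 0.17, and fog-3 and fog-1, which direct germ cells into the sperm fate at an earlier step, at 0.61 and 0.16. The locus of fog-1 overlaps the more abundant rom-5.

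Yolk genes were lower as well, and oocyte genes slightly so. All 6 vitellogenin genes lay below wild type, with a median of -1.02 and 4 at least 2-fold lower. How reads that match several of these genes were assigned is not stated in the sources used here, so they may not be separate measurements. The levels of vit-3 and vit-4 were close, at 657 and 327 and at 679 and 328. The level of vit-5 was 1353 in wild type and 632 in ahr-1(ia03), and that of vit-6 was 3301 and 1602. Of the others vit-2 was at 1816 and 1046, and more abundant features overlap vit-3 and also vit-4. In the intestine, where yolk is made, other markers did not share that size: the list of 15 intestine markers, which holds vit-2, had a median of -0.00 and 0 past 2-fold. Of 22 oocyte and eggshell genes 21 lay below wild type, with a median of -0.23 and 0 past 2-fold. The lowest, perm-2 and perm-4 of the eggshell's permeability barrier, were at 425 and 276 and at 343 and 241.

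Genes of the mitotic and meiotic germline lay only slightly below wild type. Of 15 measured markers of proliferating and pachytene germ cells 14 lay below, with a median of -0.25 and 0 past 2-fold. The summed FPKM of all 16 listed markers was 2208 in wild type and 1818 in ahr-1(ia03). That sum includes cgh-1, which is no member because its status was FAIL, at 585 and 515. The translational repressor gene gld-1 was at 311 and 223, and the Notch receptor gene glp-1, which keeps germ cells dividing, at 25.6 and 22.5. P granule and RNA regulators had a median of -0.15 and genes of DNA replication and the cell cycle -0.10. In these bulk values fewer germ cells and less RNA per cell cannot be told apart.

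A single meiotic gene stood far from its list. The FPKM of him-8, a zinc finger gene for pairing of the X chromosomes, was 209 in wild type, 14.8 in ahr-1(ia03) and 40.1 in ahr-1(ju145). It was the single one past 2-fold of the 38 measured genes of meiotic pairing, synapsis and recombination, whose median was -0.19. The authors' deposited table gives him-8 a q-value of 0.332. The gene rec-1, which acts on the distribution of crossovers and was picked after its value was seen, had 16.17 in wild type, 4.94 in ahr-1(ia03) and 12.4 in ahr-1(ju145).

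**Figure D4:**
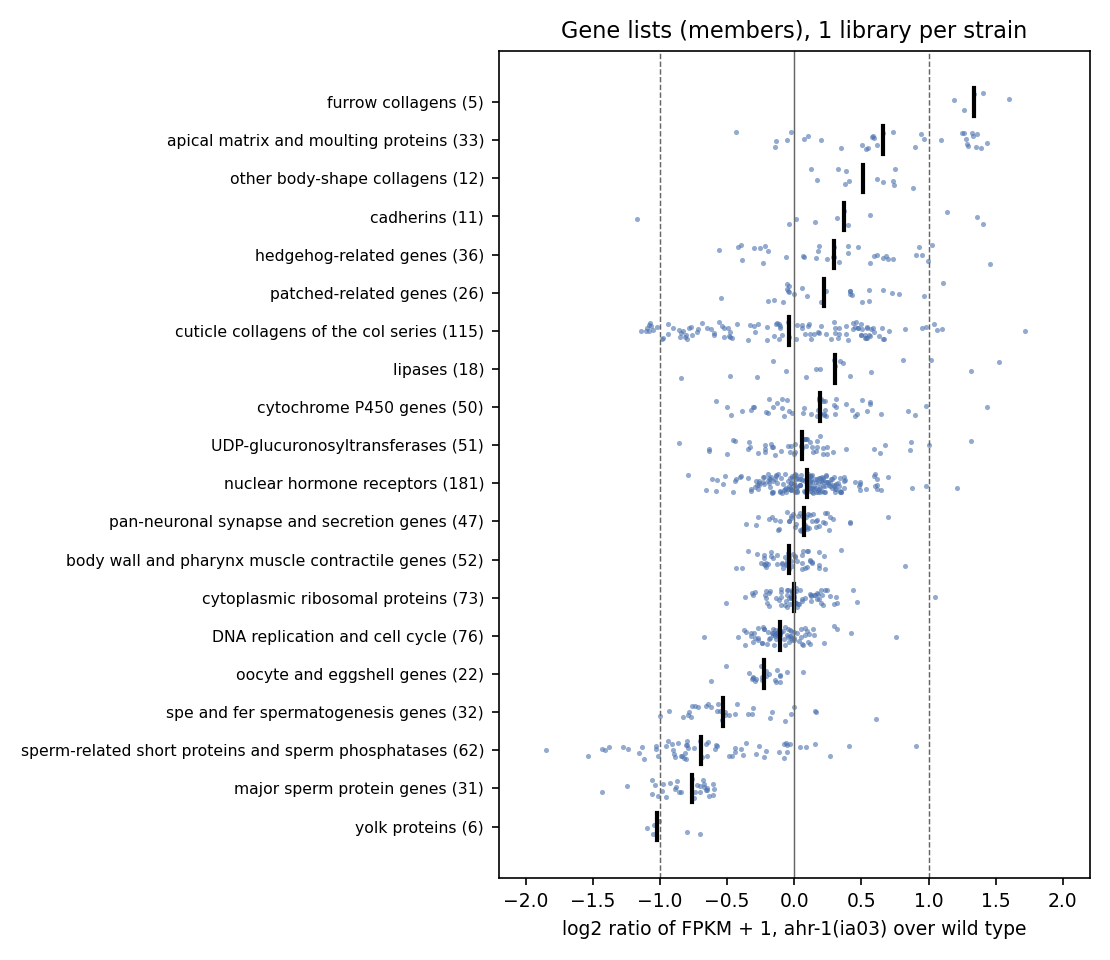
Log2 ratio of FPKM + 1, ahr-1(ia03) over wild type, for the members of 20 gene lists, 1 point per gene, with the list median as a black bar and the number of members in parentheses. Dashed lines mark 2-fold. Furrow collagen and apical matrix lists lie at the right, ribosomal protein and muscle lists near 0, and sperm and yolk lists at the left.

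Signalling peptides gave some of the largest single differences. The insulin-like gene ins-35 had the highest log2 ratio of the named genes above 0 in both libraries, 2.69, at an FPKM of 3.81 in wild type, 30.1 in ahr-1(ia03) and 17 in ahr-1(ju145). Of 28 insulin-like genes measured, 2 were at least 2-fold higher and 6 lower, with a median of -0.40. The authors' deposited table gave a q-value under 0.05 to 1 of the 2 and to 0 of the 6. Exon length, which went with the size of a difference, was not taken into account for these genes or the nlp genes below. Several of these rest on very low values, since ins-21 and ins-23 were listed at 0 in ahr-1(ia03) against 10.3 and 1.19 in wild type, and ins-25 was listed at 0 in wild type. The most abundant insulin-like gene, ins-27, had 118.9 and 171. Downstream of the ligands, 0 of 16 genes of the insulin pathway reached 2-fold.

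Of 68 nlp genes, which encode neuropeptide-like and antimicrobial peptides, 0 were at least 2-fold higher and 5 lower. The lowest log2 ratio of the named genes above 0 in both libraries, -3.86, was that of nlp-20, at 145.4 in wild type, 9.10 in ahr-1(ia03) and 9.88 in ahr-1(ju145). The others were nlp-26 at 537 and 237, nlp-28 at 393 and 193, and nlp-56 and nlp-70 at lower levels, with nlp-28 named after its value was seen. By contrast 0 of 30 FMRFamide-like peptide genes reached 2-fold, and their median was -0.03. The synapse and secretion genes common to neurons had a median of 0.07 and 0 of 47 past 2-fold. The 14 neuron markers, members or not, had summed FPKM of 468.9 in wild type and 463.3 in ahr-1(ia03).

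Cilia and glia genes with large ratios were of low level. The 34 members of the cilia list, taken by gene name, had a median of 0.09, with 3 of them past 2-fold upward and 1 downward. The cilium gene dyf-3 had 1.48 in wild type and 5.25 in ahr-1(ia03), and dyf-4, another gene whose mutants fail to take up dye in sensory neurons, had 4.90 and 11.1. The third, osm-8, is on the list by its name, and the sources used here give it no role in cilia. It had 4.78 and 10.7 in a locus shared with the more abundant npp-21. The lower one was dylt-2, a gene for a dynein light chain, at 1.85 and 0.136. The glial marker delm-2, a degenerin-like channel, had 0.596 and 2.44, and its neighbour acd-1, another channel of glia, had 3.54 and 10.2. Of 10 glia markers measured 2 were at least 2-fold higher, delm-2 and the patched-related ptr-10 given above, and the median was 0.10. The gene acd-1 is not on that list. Chemoreceptor genes were mostly unmeasured, with 34 members among 1632 in the table.

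In metabolism the larger differences were those of single enzymes. The catalase genes ctl-1, of the cytosol, and ctl-3 had 7.08 and 5.25 in wild type and 32 and 17.6 in ahr-1(ia03). Their neighbour ctl-2, the peroxisomal catalase, had 77.2 and 73.1, and reads of these 3 similar genes may be divided among them. The arginine kinase gene argk-1, whose enzyme stores phosphate as phosphoarginine, had 8.95 in wild type, 35.3 in ahr-1(ia03) and 23.2 in ahr-1(ju145). Of 18 lipases 13 lay above wild type and 3 were at least 2-fold higher. Those of the lysosomal type were lipl-2, with 3.95 in wild type and 13.2 in ahr-1(ia03), and lipl-6, with 2.94 and 8.80. The remaining one was lips-6, with 5.53 and 12.21. In the opposite direction lay atgl-1, the lipase of fat droplets, at 21.1 and 14.9, and lips-15, at 39 and 21.3.

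Families of foreign-compound metabolism, which include targets of the receptor in vertebrates, had few members past 2-fold, as did the members as a whole. At least 2-fold higher were 2.0% of cytochrome P450 genes, 3.92% of UDP-glucuronosyltransferases, 2.44% of glutathione S-transferases and 0% of ABC transporters. The share over all members was 2.11%. At least 2-fold lower were 0%, 0%, 2.44% and 0% in the same order, against 3.56%. Of 50 cytochrome P450 genes, enzymes that oxidize foreign and internal compounds, 1 was at least 2-fold higher, cyp-13B1, at 3.52 and 11.2, and the median was 0.19. Of 51 UDP-glucuronosyltransferases 2 were higher, ugt-57 at 1.72 and 5.77 and ugt-65 at 5.51 and 12, the latter in a locus shared with the far more abundant col-130. Of 41 glutathione S-transferases 1 was higher and 1 lower, with gst-23 at 0.885 and 3.95 and gst-30 at 3.11 and 1.04. The abundant xenobiotic gene cyp-35A2 was at 62.3 and 56.9. None of 53 ABC transporters, export pumps of the membrane, reached 2-fold. Of the nuclear hormone receptors 114 lay above and 67 below wild type, with a median of 0.10, and 1 reached 2-fold, nhr-234, at 7.47 and 18.6.

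Defence and stress genes showed isolated differences in both directions, in most lists at shares near those over all members, 2.11% higher and 3.56% lower. The shares higher and lower were 3.96% and 2.97% for C-type lectins, 0.709% and 2.84% for F-box genes and 2.25% and 2.25% for chaperones. Of the 11 lysozymes measured 2 were higher and 0 lower. The lysozyme gene lys-7, for an enzyme that attacks bacterial walls, had 11.2 in wild type, 35.9 in ahr-1(ia03) and 11.7 in ahr-1(ju145). Of the C-type lectins 52 lay above wild type and 49 below, and 4 were at least 2-fold higher and 3 lower, with clec-52 at 22.3 and 46.1 and clec-180 at 19.7 and 40.5 among the higher. Of 141 F-box genes, adaptors that bring proteins to ubiquitin ligases, 1 was higher and 4 lower. Of the lower, fbxa-192 was at 11.3 and 0.381, and the pseudogenes fbxa-193 and fbxa-191 close by were at 5.58 and 0.211 and at 4.12 and 0.145. Of 89 chaperone genes 2 were higher, the peptidyl-prolyl isomerase genes fkb-7 at 2.81 and 9.77 and cyn-6 at 91.4 and 201, and 2 lower, hsp-70 and hsp-16.11, which are induced by heat. The gene dao-2, named for its level in dauer or ageing animals, had 386 and 792.

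Housekeeping and structural lists marked how level the rest was. Of the 94 lists 51 had no member past 2-fold, and 34 of those held at least 20 members. None of 52 muscle contractile genes, 32 genes of glycolysis and trehalose, 49 of the respiratory chain, 29 of the proteasome, 18 of the vacuolar ATPase or 120 of vesicle traffic reached 2-fold. The cytoplasmic ribosomal proteins had a median of -0.00, and 1 of 73 was at least 2-fold higher, rpl-29, at 3114 in wild type, 6424 in ahr-1(ia03) and 5604 in ahr-1(ju145). The 66 mitochondrial ribosomal proteins had a median of 0.13. Medians of the 14 housekeeping lists ran from -0.11 to 0.16, the latter being the 14 genes encoded in mitochondria. Single genes of that mitochondrial list ran from -2.08 to 0.90, and 1 was at least 2-fold lower. The body wall muscle markers had a median of -0.13 with a summed FPKM of 8005 in wild type and 7136 in ahr-1(ia03).

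Among longer named genes, here those with a name and at least 1000 nt of exon, higher levels outnumbered lower ones. Of 5819 such members 60 were at least 2-fold higher (1.03%) and 33 lower (0.567%). Of the 60, 26 (43.3%) belonged to the lists of the cuticle, which hold 302 (5.19%) of the 5819 and include the cadherin list added after values were seen. The lists of the cuticle also take in basement membrane, hedgehog-related, patched-related, abu and pqn genes. All lists were chosen with earlier results of these data known, so the shares by list given here are not independent of the values. Several others of the 60 are also known from the hypodermis or its cuticle and were picked after their values were seen. The mucin-like gene dpy-6 had 17.7 in wild type and 43.1 in ahr-1(ia03), the BED zinc finger gene dpy-20 had 4.0 and 10.1, and the cell fusion gene aff-1 had 2.79 and 6.61. The matrix metalloprotease gene zmp-2 had 6.17 and 15.1, and mab-3, a DM-domain regulator of sexual differentiation, had 2.06 and 5.29. Of shorter genes, cuti-1, which acts in the hypodermis and excretory cell, had 36.8 and 96.7. The 33 lower ones held 7 members of the cuticle lists (21.2%) and 5 of the germline lists (15.2%), which hold 251 (4.31%) of the 5819, and 6 in a single stretch of chromosome V. Those 6 are copies of mct-2 and irld-35, and Y19D10A.5 and C01B4.7, whose listed name is the sequence name of another feature. Copies that share reads are not separate measurements.

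Across the genome the X chromosome stood slightly apart. Its 2064 members had a median of 0.08 and 59.9% lay above wild type, whereas the 12506 members elsewhere had a median of -0.03 and 45.6% above. Leaving out the genes of the cuticle lists, the median of the X chromosome was 0.07 with 59.4% above. The germline lists, most of which lay below wild type, were not left out in this way. The part of gene content in the difference between chromosomes was not tested. Among coding genes and pseudogenes whose exons reach 300 nt, 2.51% on the X chromosome were at least 2-fold higher and 1.95% lower, while on each of chromosomes I to V the lower outnumbered the higher. Chromosome III had the smallest shares, with 0.785% higher and 1.76% lower.

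**Figure D5:**
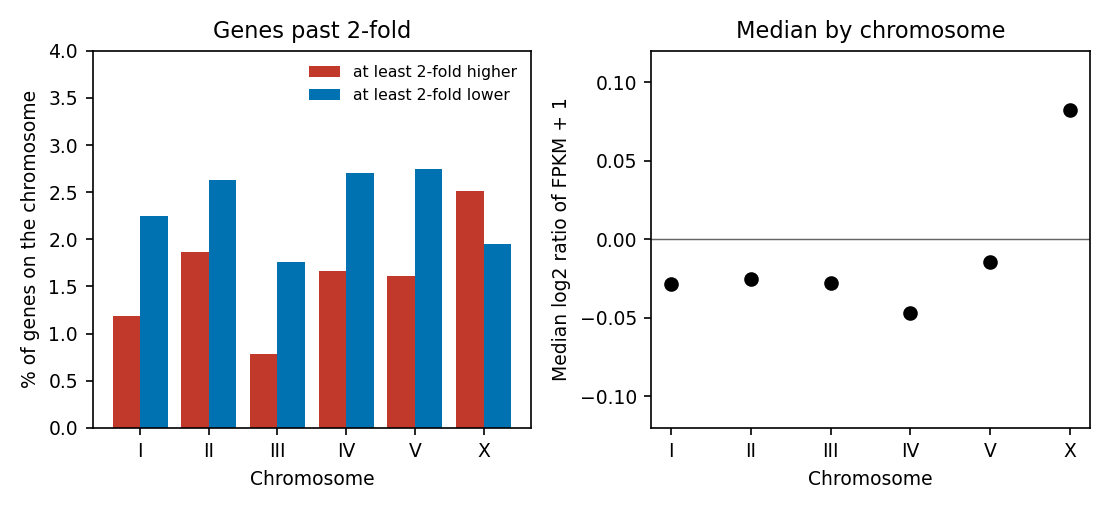
Coding genes and pseudogenes whose exons reach 300 nt, by chromosome, in 1 library per strain. The left panel gives the percentage at least 2-fold higher (red) and lower (blue) in ahr-1(ia03), and the right panel the median log2 ratio of FPKM + 1. The X chromosome is the one where red exceeds blue and the median is above 0.

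In windows of 1 Mb, the median share of coding genes and pseudogenes past 2-fold was 3.80% over 102 windows. The highest share, 15.2%, lay on chromosome V from 2 to 3 Mb in the coordinates of the files, where 16 of 105 were at least 2-fold lower and 0 higher. Most of these sit in a stretch of 19 members, whose bounds were set after the values were seen. Of the 19 members, 16 share their annotated name with another copy there, so reads cannot be given to single copies. The copies of clec-209, a C-type lectin gene, had FPKM of 389 (Y19D10A.9) and 274 (F56A4.2) in wild type and 41.3 and 31.7 in ahr-1(ia03). The copies of irld-35, a gene for a protein with a receptor L domain, had 10.4 (Y19D10A.7) and 7.48 (F56A4.9) in wild type and 0.362 and 0.119 in ahr-1(ia03). The monocarboxylate transporter-related copies Y19D10A.12 and C01B4.9, both called mct-2 in the Ensembl annotation, had 114 and 76.4 in wild type and 35.5 and 22.3 in ahr-1(ia03). In ahr-1(ju145) these transporter copies were at 125 and 80.3. Just outside the stretch, the neighbouring pud-3 and pud-1.1, named after their values were seen, were at 46.4 and 45 and at 471 and 377.

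Windows on chromosome V from 15 to 16 Mb (9.48%) and from 16 to 17 Mb (8.0%) and on chromosome II from 2 to 3 Mb (9.40%) followed that of 17 to 18 Mb on V (11.8%), and the window on chromosome IV from 5 to 6 Mb had 7.89%. The latter was picked for description after its values were seen, because its median was the lowest of the 102 windows. In it 12 of 152 coding genes and pseudogenes were at least 2-fold lower and 0 higher, and the median of all 159 members was -0.38. Of those members 18 belonged to the germline lists, with a median of -0.93, and the other 141 had a median of -0.32. The 4 members with the largest differences there had no gene name, among them ZK354.3, at 36.2 in wild type, 10.3 in ahr-1(ia03) and 10.5 in ahr-1(ju145), and F36H12.4, at 168, 58.8 and 97.4. On chromosome V from 17 to 18 Mb 4 of 51 were lower and 2 higher, with the F-box genes given above at the front. In the window that holds ahr-1 itself, on chromosome I, the largest named difference was that of the ribonuclease H gene rnh-1.3, at 37.3 in wild type and 11.5 in ahr-1(ia03).

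Much of what was past 2-fold carries no name. Of 551 coding genes and pseudogenes past 2-fold whose exons reach 300 nt, 374 had only their own sequence name, 132 of them higher and 242 lower. Those with a name, counting some listed under the sequence name of another feature, were evenly divided, at 89 higher and 88 lower. The lists covered 3680 members and 143 of the members past 2-fold.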

How the data were processed

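RNA of L4 whole animals was sequenced, 1 library for each of 3 strains. Per the submitters' processing notes, TopHat (1.3.1), Bowtie2 (2.0.2), SAMtools (0.1.16), Cufflinks (1.3.0), Cuffdiff and FastQC were used, with no role stated. The deposited FPKM values, per the file headers, are scaled to transcript length and library depth, so they hold no counts and depth is unknown. The p-value and q-value deposited by the authors compare 1 library with 1 library and are quoted as theirs.

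The log2 ratio used a pseudocount of 1 for features with status OK, an FPKM of at least 1 in either library and a locus of at least 300 nt. No test was made. The 94 gene lists were taken whole by gene name. The members and lists were chosen with earlier results of these data known. The rule for naming genes covered ahr-1 and the 15 highest and 15 lowest named genes above 0 in both libraries. From each list it took up to 4 genes past 2-fold per direction and the 2 most abundant, and all of a list of at most 10. From each window described it took the 4 largest differences. Not every gene the rule covers is named in the text. Genes outside that rule were named with their values known, and only some of them are marked so where they appear. A few list patterns that caught genes of other families were corrected by name after the files were read.

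The sources used here do not give the build of the files. Ensembl release 115 gave names, biotypes and exon lengths for 44880 features matched by sequence name, and no coordinates. Promoter sequences were not analysed here. Alternatives were other pseudocounts, floors, span limits, scalings, sizes and subsets. The code was tested on simulated data. Python 3.11.15, numpy 2.4.6, pandas 2.3.3 and matplotlib 3.10.9 were used.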

Additional observations from a re-analysis of the deposited data

How the results depend on the processing

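At least 2-fold higher were 308 genes as reported, 487 with a pseudocount of 0.1, 113 with a pseudocount of 5 and 203 without genes whose locus overlaps another feature. At least 2-fold lower were 518 as reported, 792 and 269 with pseudocounts of 0.1 and 5 and 279 with a locus of at least 1000 nt. Among coding genes and pseudogenes with 300 nt of exon, a subset added after seeing the data, 330 were lower. Both directions together gave 826 genes at 2-fold, 2748 at 1.5-fold, 187 at 4-fold and 398 at 2-fold with a q-value under 0.05 in the authors' deposited table. Higher genes made up 37.3% of those past 2-fold as reported and 39.3% and 43.3% after rescaling by the median ratio and by the upper quartile.

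The 12 apical matrix and 5 furrow collagen genes past 2-fold stayed within 1.5 times those counts under all 12 alternatives run. Yolk genes past 2-fold fell from 4 to 1 under the upper quartile scaling and to 2 without overlapping loci. With a locus of at least 1000 nt, 0 major sperm protein genes (6 as reported) and 0 sperm-related short genes (13 as reported) were past 2-fold, since few of these genes have so long a locus. In the subset with 300 nt of exon 6 of the latter were. The median of the SCP/TAPS-domain list changed sign, from 0.13 to -0.036, with no filter on low values. Of 3856 values for 338 named genes under the alternatives 0 changed direction past 2-fold and 89 dropped below 2-fold, 77 of them with a pseudocount of 5. No paired analysis was possible because each strain gave 1 library, and for the same reason no replicate could be left out. Depth is unknown, so differences of genes near FPKM 1 or of short genes cannot be given a counting error.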
